A study of Mus musculus with 6 samples.

Results

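The genes described here are 8 regulators of the epithelial state: the splicing regulators Esrp1 and Esrp2, the grainyhead-like transcription factors Grhl1 and Grhl2, the OVO-like zinc fingers Ovol1 and Ovol2, and the epithelium-specific ETS factors Elf3 and Ehf. They were chosen by symbol with their counts in the Prdm16 and puro libraries in view, and all 8 were among the 24197 genes of the count table. The libraries held polyadenylated RNA of stromal-vascular cells, the fraction of fat that carries fibroblasts, adipocyte progenitors, vascular and immune cells, from the inguinal fat of C57BL/6 mice. In 3 libraries the cells had received a retrovirus carrying Prdm16, and in 3 a control (puro) retrovirus. Cells of both groups grew in standard medium, and the labels name no adipogenic induction. They do not say whether replicates were separate cultures or animals. A p-value here thus sets the group difference only against the spread between these libraries, and that spread may be technical.

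ESRP proteins bind RNA and favour the exons that epithelial cells include in genes such as Fgfr2 and Cd44. Grainyhead-like factors act on genes of cell junctions, OVOL proteins repress genes of the mesenchymal state, and ELF3 and EHF are ETS factors found mostly in epithelia. In development and in tumours these regulators are set against ZEB and SNAIL repressors, and a fat stroma of mesenchymal cells is not a tissue for which they are known.

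The 8 genes did not move as 1 set. Reads of Esrp1, Esrp2 and Elf3 were plentiful enough in the Prdm16 libraries to stand clear of a nearly silent puro group, Ovol2 and Ehf were higher on a handful of reads, Grhl1 was slightly lower, and Grhl2 and Ovol1 were at a few reads in both groups. The normalised levels, in CPM (counts scaled to library size), did not overlap between the groups for 5 genes that were higher and 1 that was lower with Prdm16. Among the 18578 genes with any read, 31.2% were higher without overlap and 32.6% lower. The 8 genes were selected on this same contrast, so their values are given as a description and without a test. Library totals ran from 28169059 to 35798201 counts, and a count of 0 allows a level of up to 3 counts, which was 0.0852 to 0.104 CPM. Ovol2 and Ehf, counted above as higher without overlap, each had a Prdm16 library of only 2 reads. By this floor their groups were not separated. Prdm16 itself was read 72525 to 98437 times in the Prdm16 libraries and 14 to 25 times in the puro libraries. In bulk RNA, fewer cells of a type and less RNA per cell cannot be told apart.

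Promoter sequences from RefSeq (GRCm38.p6, a later build than the mm9 named for these data) were at hand for 3 of the 8 genes, Grhl1, Ovol2 and Elf3. The 250 bases before the start are shown for 1 start of each because the genes differ in direction; the capitals mark CACCTG, the E-box that ZEB and SNAIL repressors bind, searched on both strands.
Elf3, chr1:135258473-135258722, minus strand: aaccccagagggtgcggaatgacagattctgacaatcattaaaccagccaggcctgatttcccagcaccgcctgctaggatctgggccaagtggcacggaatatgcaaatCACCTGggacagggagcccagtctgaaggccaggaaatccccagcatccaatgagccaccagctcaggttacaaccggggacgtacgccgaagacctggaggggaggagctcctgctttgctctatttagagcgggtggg
Ovol2, chr2:144331363-144331612, minus strand: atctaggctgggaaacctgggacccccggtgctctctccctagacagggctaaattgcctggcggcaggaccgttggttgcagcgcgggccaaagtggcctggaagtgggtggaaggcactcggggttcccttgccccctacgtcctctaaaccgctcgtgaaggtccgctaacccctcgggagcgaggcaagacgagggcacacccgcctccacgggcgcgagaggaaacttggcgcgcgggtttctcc
Grhl1, chr12:24572037-24572286, plus strand: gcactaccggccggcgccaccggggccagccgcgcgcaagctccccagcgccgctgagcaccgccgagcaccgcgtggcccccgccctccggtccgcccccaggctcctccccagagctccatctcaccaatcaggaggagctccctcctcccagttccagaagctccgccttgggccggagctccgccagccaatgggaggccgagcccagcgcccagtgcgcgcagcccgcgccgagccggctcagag

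The Elf3 window held 1 E-box, beginning 140 bases before the start, and the Ovol2 and Grhl1 windows held none. An E-box stood in 17.2% of the 32851 promoter windows of the same length. The grainyhead motif AACCGGTT (0.116% of windows), the OVO motif CCGTTA (2.18%) and the ETS motif CCGGAAGT (2.88%), searched on both strands, were in none of these 3 windows. The windows differed in base composition, with 57.2% G and C and 8 CpG pairs in Elf3, 65.2% and 20 in Ovol2, and 75.6% and 27 in Grhl1. A second Grhl1 start in RefSeq, not shown, had 52.0% G and C and none of the 4 motifs.

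Esrp1 was the most abundant of the 8. It was read 178, 164 and 225 times in the Prdm16 libraries and not once in the 3 puro libraries. All Prdm16 libraries were thus high and the puro group was empty. Its level was 5.82 ± 0.853 CPM in the Prdm16 libraries (SD, n = 3) and 0 CPM in the puro libraries. With 3 counts over the puro group as the floor, Esrp1 was at least 193-fold higher. The log2 value of that bound, 7.59 with all libraries, was 6.96 to 7.05 with 1 puro library left out and lowest without puro replicate 2. Of 833 genes with reads in the Prdm16 libraries and none in the puro libraries, Esrp1 was in place 6 by mean CPM.

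Esrp2, the paralog with overlapping exon targets, had 40, 51 and 31 reads in the Prdm16 libraries, against 0, 3 and 0 in the puro libraries. Its level was 1.28 ± 0.434 CPM in the Prdm16 libraries and 0.0287 ± 0.0497 CPM in the puro libraries (SD, n = 3 each). The ratio of the summed counts, scaled by library size, was 41.5 with an exact 95% counting interval of 13.9 to 204. All 3 puro reads came from replicate 2. The log2 ratio of Esrp2 was 5.37 with all libraries, 4.78 without puro replicate 3 and 4.83 without puro replicate 1. Without puro replicate 2 the puro group was empty, and the log2 bound against 3 counts was 4.75. That bound cannot be set against the ratios. Intervals and floors cover counting error only. On the opposite strand, exons of Nfatc3 and 1810019D21Rik overlap those of Esrp2, and whether the counting used strand is not stated in the sources used here. Nfatc3 had 169 ± 5.72 CPM in the Prdm16 libraries and 148 ± 6.07 CPM in the puro libraries (SD, n = 3 each), where Esrp2 was nearly at 0. 1810019D21Rik had 0.659 ± 0.0806 CPM with Prdm16 and 0.340 ± 0.0823 CPM with puro. Their part in the Esrp2 count was not tested.

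Elf3, an ETS factor of simple epithelia, was steady in the Prdm16 libraries with 21, 22 and 21 reads. The puro libraries held 1, 4 and 1. The levels were 0.662 ± 0.0865 CPM with Prdm16 and 0.0589 ± 0.0483 CPM with puro (SD, n = 3 each), for a ratio of 10.9 (counting interval 4.73 to 30.7). Puro replicate 2 carried most of the puro reads, and without it the log2 ratio was 4.4 in place of 3.44. Ehf, its relative, was far lower: 6, 7 and 2 reads in the Prdm16 libraries and 0, 0 and 1 in the puro libraries. The ratio was 15.3 with a counting interval of 2.35 to 644. Without puro replicate 3, which held the puro read, the puro group was empty and only a bound could be given, 1.76 on the log2 scale. Its floor of 3 counts exceeds the 1 read removed, so the bound cannot be set against the log2 ratio of 3.93 with all libraries. Without puro replicate 2 the log2 ratio was 3.31.

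**Figure D1:**
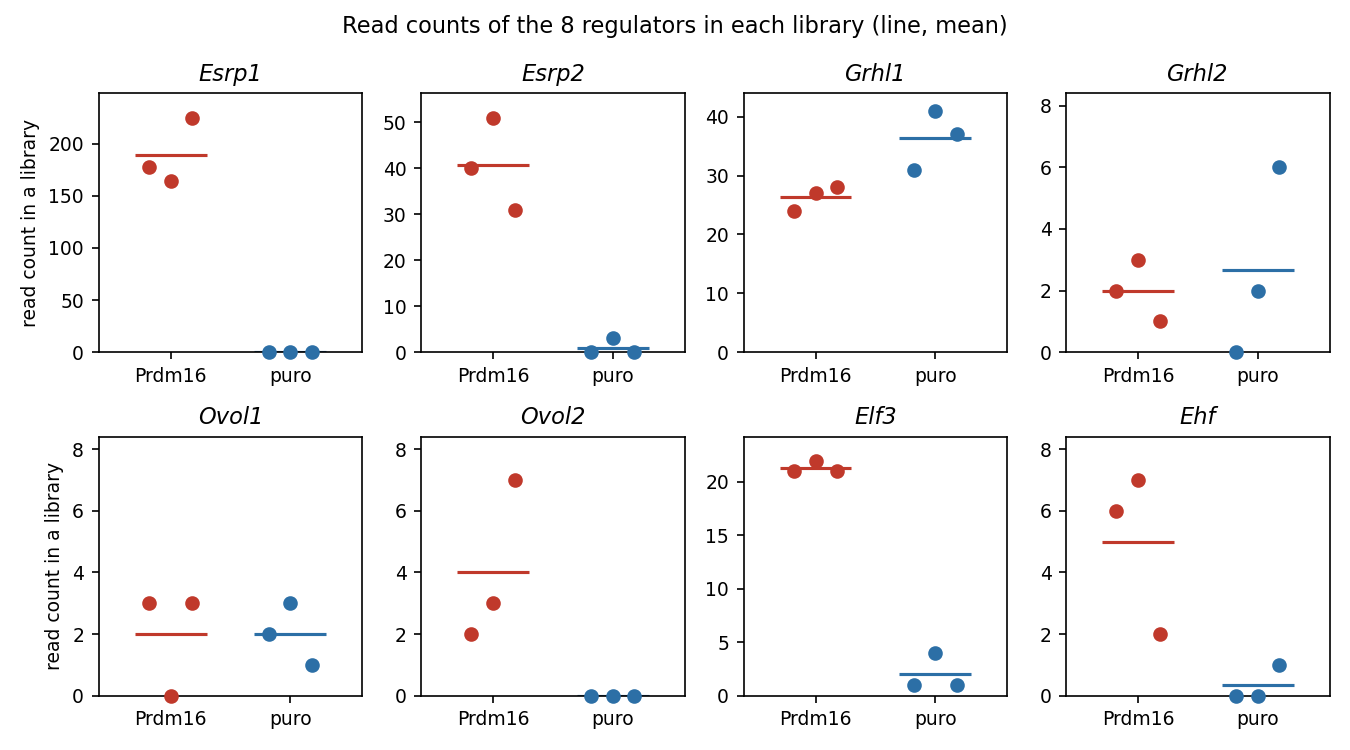
Read counts of each regulator in each library, with Prdm16 libraries on the left and puro libraries on the right of each panel; points are libraries, lines are group means and each panel has its own axis from 0. Esrp1 lay at 164 to 225 reads with Prdm16 and at 0 with puro, while Grhl2 and Ovol1 stayed at 0 to 6 reads in every library.

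The grainyhead-like pair was not higher with Prdm16. Grhl1 had 24, 27 and 28 reads in the Prdm16 libraries, against 31, 41 and 37 in the puro libraries. Its level was 0.818 ± 0.127 CPM with Prdm16 and 1.09 ± 0.0882 CPM with puro (SD, n = 3 each). The highest Prdm16 value, 0.933 CPM, lay just below the lowest puro value, 1.0 CPM. The ratio was 0.739 with a counting interval of 0.546 to 0.996. The log2 ratio, −0.44 with all libraries, ran from −0.53 to −0.31 when libraries were left out in turn. Grhl2, the factor most closely tied to E-cadherin and junction genes in other epithelia, had 2, 3 and 1 reads in the Prdm16 libraries and 0, 2 and 6 in the puro libraries. The groups overlapped, and the ratio of 0.765 had a counting interval of 0.219 to 2.51. Most puro reads of Grhl2 came from replicate 3, and without it the log2 ratio was 1.02, against −0.39 with all libraries.

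The OVO-like repressors were close to the limit of detection. Ovol1 had 3, 0 and 3 reads in the Prdm16 libraries and 2, 3 and 1 in the puro libraries, for a ratio of 1.02 (counting interval 0.273 to 3.81). A change in Ovol1 or Grhl2 within these intervals was not detectable at this depth. Ovol2 had 2, 3 and 7 reads in the Prdm16 libraries and 0 in each puro library. The counting interval of its ratio began at 2.83. Set against 3 counts for the empty puro group, Ovol2 had a bound of 4.08-fold. Without Prdm16 replicate 3, which held most of its reads, the log2 value of that bound was 1.37 in place of 2.03, and it was 1.40 to 1.49 without a puro library.

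Levels were compared between genes per kilobase of exon sequence (GENCODE M21, GRCm38). In the Prdm16 libraries Esrp1 came first, with 0.923 ± 0.135 CPM per kb (SD, n = 3). Its lowest library, 0.802 CPM per kb, stood above the highest library of any other member. Elf3 followed with 0.299 ± 0.0390 and Esrp2 with 0.294 ± 0.0999 CPM per kb, and their libraries overlapped. Grhl1 had 0.148 ± 0.0229 CPM per kb, below every library of Elf3 and Esrp2. Ovol2 (0.0584 ± 0.0371 CPM per kb), Ehf (0.0282 ± 0.0164), Ovol1 (0.0167 ± 0.0145) and Grhl2 (0.00737 ± 0.00433) came last, and each overlapped its neighbour in that order. In the puro libraries the order was another one: Grhl1 led with 0.197 ± 0.0159 CPM per kb, and no library of another member exceeded 0.0517.

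The balance within the ESRP pair varied between Prdm16 libraries. Esrp1 made up 75.4%, 68.9% and 83.3% of the summed ESRP level per kilobase in replicates 1, 2 and 3. Prdm16 replicate 2 had the highest Esrp2 level and replicate 3 the highest Esrp1 level. Esrp1 alone gave 59.2% to 70.8% of the 276 to 318 reads of the 8 genes in a Prdm16 library, and none of the 34 to 53 reads in a puro library.

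**Figure D2:**
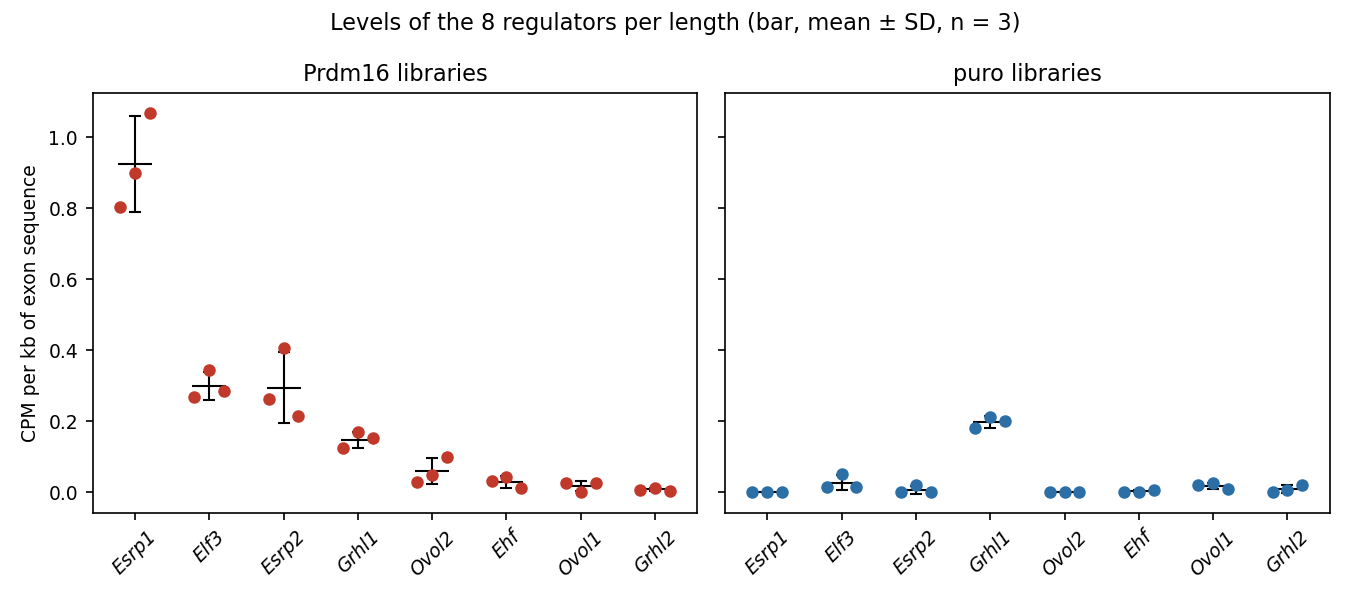
Levels of the 8 regulators in CPM per kb of exon sequence, Prdm16 libraries in the left panel and puro libraries in the right; points are libraries and bars are mean ± SD (n = 3). Esrp1 stood highest with Prdm16, at 0.923 ± 0.135, and Grhl1 with puro, at 0.197 ± 0.0159.

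Only 4 of the 8 genes, Esrp1, Esrp2, Grhl1 and Elf3, had enough reads to enter the fit over all genes. For these the other genes with the nearest pattern were found by the Euclidean distance between centred log2 CPM profiles over the 6 libraries. The nearest to Esrp1 were D630039A03Rik, Eps8l2 and Mob3b, at distances of 0.283 to 0.337. D630039A03Rik had 412, 351 and 434 reads with Prdm16, against 2, 3 and 2 with puro. Those nearest to Esrp2 were Wnt7a, Rapgef5 and Camkv (0.765 to 0.895), and those nearest to Elf3 were Zfp454, Ephx4 and Tns4 (0.330 to 0.419). Grhl1 was nearest to Sh3yl1, 4930429B21Rik and Wfikkn1 (0.144 to 0.178).

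Neighbouring genes did not share the size of the ESRP and Elf3 differences. The 8 regulators lie on chromosomes 1, 2, 4, 8, 12, 15 and 19, with Ovol2 and Ehf both on chromosome 2. Of the 16 nearest protein-coding genes of the table, 1 on each side of each regulator in RefSeq, 14 entered edgeR's quasi-likelihood test, whose p-values over all 13805 genes were adjusted by Benjamini-Hochberg. At an adjusted p below 0.05, 6 were higher and 7 lower with Prdm16, and their log2 fold changes lay between −0.64 and 0.45. Over all tested genes 37.5% were higher and 38.0% lower. Of these neighbours, 1700020D05Rik and Ap5b1 beside Ovol1, Pet117 beside Ovol2 and Apip beside Ehf lost their calls when single libraries of either group were left out; the adjusted p without Prdm16 replicate 3 was 0.0554, 0.0614, 0.12 and 0.0708 in that order. With all libraries kept, DESeq2 also ended the calls of 1700020D05Rik (adjusted p = 0.182), Pet117 (0.126) and Apip (0.133). Pet117 was further lost with upper-quartile scaling (0.0576), limma-voom (0.0617) and the minimum of 1 CPM (0.0519), and Apip without the filter on low counts (0.0695). Nfatc3 and Ap5b1 overlap the span of the regulator beside them, Esrp2 and Ovol1. Esrp1 lies between Dpy19l4, at −0.02 ± 0.04 (log2 fold change ± SE, adjusted p = 0.69), and the repair gene Rad54b, at −0.16 ± 0.04 (adjusted p = 0.00337). On 1 side of Ehf lies its ETS relative Elf5, with 0 reads over the Prdm16 group and 2 over the puro group.

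Relatives of the regulators went both ways, and 1 of them moved far. Of 7 tested genes of the grainyhead, OVO and ETS families, 2 were higher (28.6%), 4 lower (57.1%) and 1 did not pass. Over all tested genes the shares were 37.5% and 38.0%. The median log2 fold change of the 7 was −0.12, against −0.007 over all tested genes. Tfcp2l1, a CP2-type relative of the grainyhead factors known from kidney and stem cells, had 472, 385 and 410 reads in the Prdm16 libraries, against 27, 27 and 26 in the puro libraries. It rose by 4.01 ± 0.11 on the log2 scale (adjusted p = 8.37e-11). The broadly expressed Tfcp2 had a log2 fold change of −0.45 ± 0.04, Ubp1 of −0.12 ± 0.04, Elf1 of −0.30 ± 0.06, Elf4 of −0.14 ± 0.04 and Elf2 of 0.16 ± 0.04. The call of Ubp1 was lost without puro replicate 2 (log2 fold change −0.107, adjusted p = 0.0512). That of Elf4 was lost without Prdm16 replicate 3 (−0.105, adjusted p = 0.0719). Grhl3, the skin barrier member of the grainyhead family, did not pass (0.47 ± 0.43, adjusted p = 0.337). Ovol3, with 9 reads over the Prdm16 group and 7 over the puro group, and Spdef, an ETS factor of secretory epithelia, with 29 and 24, were too low to be tested.

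Other epithelial transcription factors were mostly near silence, with 8 of 12 untested. Klf5, a factor of proliferating epithelia, had 19.2 ± 0.817 CPM with Prdm16 and 1.87 ± 0.176 CPM with puro (SD, n = 3 each) and rose by 3.36 ± 0.09 (adjusted p = 7.27e-11). Foxa1, a pioneer factor of luminal epithelia, had 9.34 ± 0.541 CPM with Prdm16 and 0.801 ± 0.126 CPM with puro and rose by 3.53 ± 0.13 (adjusted p = 8.22e-10). Trp63, the basal epithelial p53 relative, fell by 0.29 ± 0.07 (adjusted p = 0.00231). Among the untested genes, Tfap2b had 21 reads over the Prdm16 group and 0 over the puro group. Its bound against 3 counts was 7.14-fold, and its counting interval began at 5.31. Tfap2a had 13 and 2 reads, for a ratio of 6.63 (counting interval 1.5 to 60.5). Pax8 (6 with Prdm16, 17 with puro), Foxa3 (10 and 23) and Foxa2 (1 and 10) had fewer reads with Prdm16.

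The mesenchymal transcription factors, the usual opponents of the regulators, were mixed. All 13 were tested: 4 were higher (30.8%), 5 lower (38.5%) and 4 did not pass (median −0.009). These shares were near those of all tested genes, 37.5% higher and 38.0% lower. Zeb1, a repressor of epithelial genes including ESRP1 in human tumour cells, had 5648, 4975 and 5567 reads in the Prdm16 libraries, against 2739, 2852 and 2760 in the puro libraries. It rose by 0.98 ± 0.04 (adjusted p = 3.95e-09), in the same libraries in which Esrp1 was read. Prrx2, a homeobox factor of mesenchyme, rose by 0.82 ± 0.06. Snai3 rose by 3.56 ± 0.49 from 62 reads with Prdm16 against 5 with puro, and by 4.20 without puro replicate 2. Snai2, a repressor of E-cadherin, went the other way, with 51.6 ± 2.25 CPM in the Prdm16 libraries and 143 ± 3.77 CPM in the puro libraries (SD, n = 3 each; log2 fold change −1.48 ± 0.04, adjusted p = 1.33e-10). Twist2 fell by 0.61 ± 0.08 and Foxc1 by 0.41 ± 0.04.

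The other splicing regulators were mostly higher with Prdm16. Of 27 tested, 18 were higher (66.7%), 8 lower (29.6%) and 1 did not pass (median 0.33). Among all tested genes 37.5% were higher and 38.0% lower. Mbnl3, a muscleblind protein, rose by 1.31 ± 0.04, and the SR protein Srsf3 by 0.51 ± 0.03. Rbfox2, which favours mesenchymal exons in several genes, had 321 ± 8.32 CPM with Prdm16 and 470 ± 9.60 CPM with puro (SD, n = 3 each) and fell by 0.55 ± 0.03 (adjusted p = 6.28e-08). The largest falls in the list were in regulators of limited tissue range. Khdrbs3 had 2, 2 and 1 reads with Prdm16, against 51, 48 and 54 with puro (log2 fold change −4.81 ± 0.33, adjusted p = 1.39e-07). Srrm4, known from neural microexons, fell by 2.74 ± 0.13, and Rbm47, an RNA-binding protein found in epithelia, by 2.04 ± 0.13. Rbfox1 (4 reads with Prdm16, 26 with puro), Rbfox3 (2 and 6) and Srrm3 (1 and 2) were too low to be tested. The calls of Mbnl2, lower, and Nova1, higher, were lost when single libraries were left out, as without Prdm16 replicate 2 (adjusted p = 0.0591 and 0.1).

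Genes whose exons the ESRP proteins are known to regulate were all expressed. All 11 passed, 4 higher and 7 lower (median −0.18), where 75.6% of all tested genes passed, 37.5% higher and 38.0% lower. Counts per gene carry no information on which exons were used. Ralgps2, an activator of Ral GTPases, rose by 1.26 ± 0.07 and the kinase Slk by 0.83 ± 0.04. Fgfr2, the receptor with the best known ESRP-controlled exon pair, had 213, 185 and 212 reads in the Prdm16 libraries, against 111, 117 and 141 in the puro libraries. It rose by 0.75 ± 0.11 (adjusted p = 6.54e-05). The hyaluronan receptor Cd44 fell by 0.79 ± 0.04 and the scaffold Magi1 by 0.48 ± 0.06. The call of the exocyst gene Exoc7 (−0.11 ± 0.04) was lost with DESeq2 (adjusted p = 0.0763) and without the filter on low counts (0.0708).

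**Figure D3:**
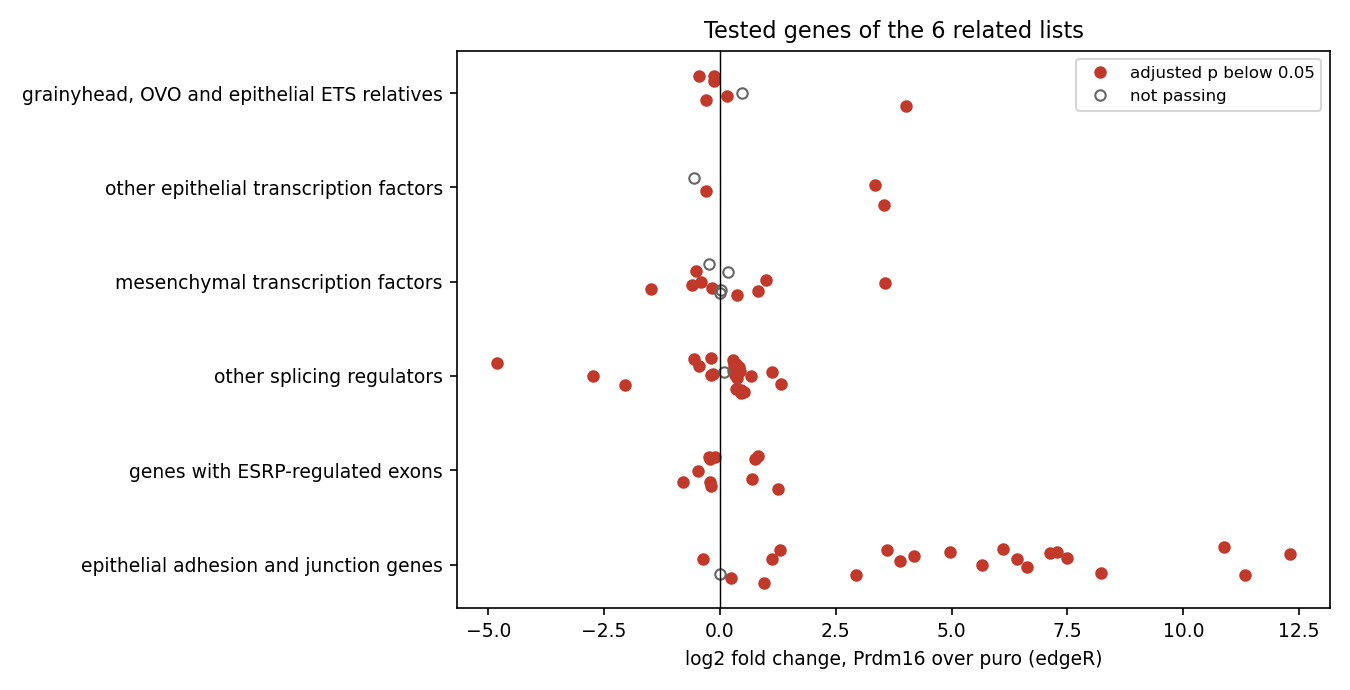
Log2 fold changes (Prdm16 over puro, edgeR) of the 84 tested genes of 6 related lists, 1 point a gene; filled points passed an adjusted p of 0.05 and open points did not, and the vertical scatter within a list has no meaning. The adhesion and junction list reached far to the right, whereas the ESRP target genes lay within −0.79 and 1.26.

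Adhesion and junction genes of epithelia were the list with the most increases: of 22 tested, 20 were higher (90.9%), 1 was lower (4.55%) and 1 did not pass. The shares over all tested genes were 37.5% higher and 38.0% lower. The median log2 fold change was 5.32, or 4.63 with genes of an empty puro group set at their bound, against −0.007 over all tested genes. Earlier results of these data were known when the list was made. Occludin, Ocln, had 437, 397 and 454 reads with Prdm16, against 2, 2 and 0 with puro (log2 fold change 8.23 ± 0.23, adjusted p = 9.39e-11). Spint2, an inhibitor of membrane serine proteases, had 32.0 ± 0.536 CPM with Prdm16 and 0.321 ± 0.0340 CPM with puro (SD, n = 3 each; 6.62 ± 0.10). The desmosomal plakin Dsp rose by 4.97 ± 0.12. E-cadherin, Cdh1, had 263, 204 and 236 reads with Prdm16 and 2, 4 and 2 with puro, and the adhesion genes Mpzl2 and Lsr had 6832 and 6244 reads over the Prdm16 group, against 1 and 3 over the puro group. Plakoglobin, Jup, was the tested member that fell (by 0.36 ± 0.05).

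A further 14 genes of that list had too few reads for the test, no more than 37 over a group. Among them were genes tied to Grhl2 in epithelia. Cldn4 had 3 reads over the Prdm16 group and 1 over the puro group, and Rab25, a GTPase of apical recycling, had 20 and 23. Cldn3 had 10 and 0 (3.40-fold against 3 counts, counting interval from 2.285) and the cadherin Cdh3 19 and 7. Claudin 7, Cldn7 (16 with Prdm16, 37 with puro), Marveld3 (2 and 14), Marveld2 (1 and 5) and the epithelial adaptor subunit Ap1m2 (0 and 6) had fewer reads with Prdm16. The protease Prss8 had 8 and 7 reads and the plakin Evpl 17 and 10. Krt8, the usual filament partner of Krt18, had 4 reads in each group, whereas Krt18 had 1304 over the Prdm16 group and 7 over the puro group. Keratin genes have similar copies, and how shared reads were counted is not stated, so both counts are uncertain to an extent that was not tested.

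**Figure D4:**
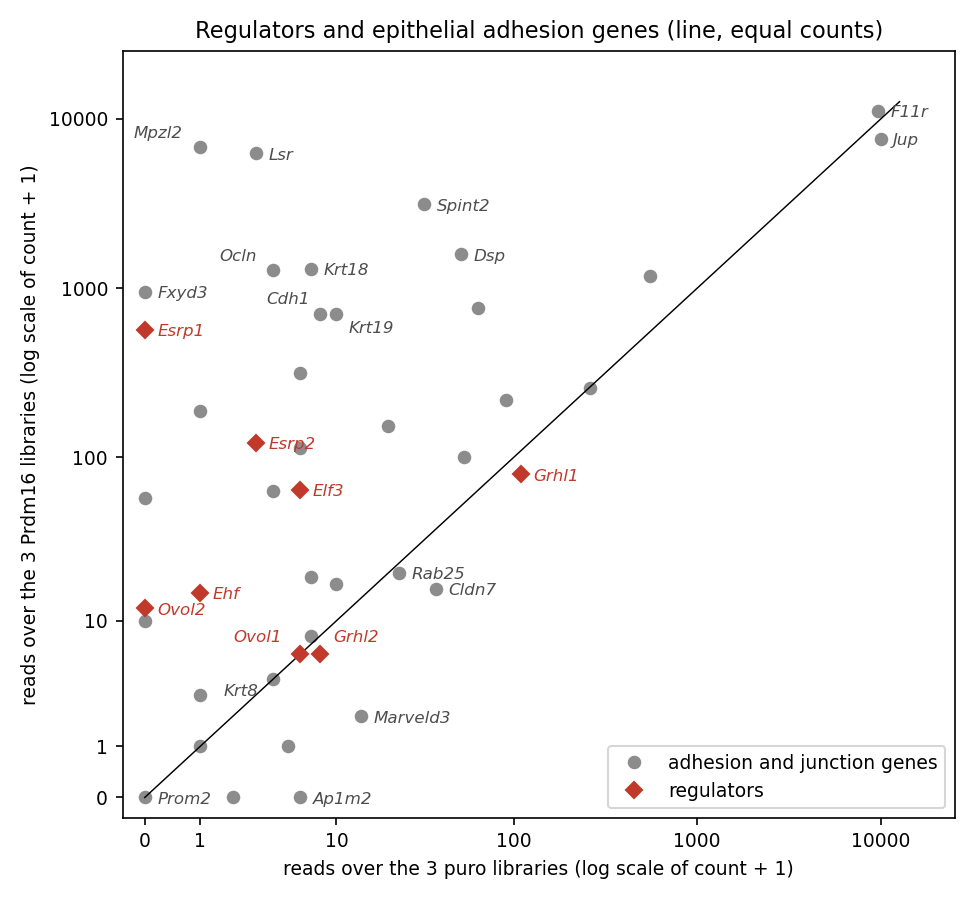
Reads summed over the 3 Prdm16 libraries (vertical) and over the 3 puro libraries (horizontal), on log scales of the count plus 1, for the 8 regulators (red diamonds) and 36 epithelial adhesion and junction genes (grey circles); the line marks equal counts. Esrp1 lies beside Fxyd3 on the left edge with no puro read, while Grhl2 and Ovol1 lie by the line at 6 reads with Prdm16.

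Markers of cell types were read beside the regulators. The 10 fibroblast and progenitor markers were read in both groups but summed to 1662 to 1783 CPM with Prdm16 and 6032 to 6843 CPM with puro. Most of the puro sum came from Col1a2 and Col1a1, with means of 3428.9 and 1705.5 CPM. With Prdm16 these means were 189.12 and 145.39 CPM. Most of the Prdm16 sum came from Ly6a, which averaged 988.06 CPM with Prdm16 and 376.05 CPM with puro. The fall in the sum thus reflects the collagen genes and not every marker. Of the 10 markers 7 were lower, 2 higher and 1 did not pass (median log2 fold change −2.15). Among all tested genes, with which the calls of every marker list compare, 38.0% were lower and 37.5% higher. The collagen gene Col1a2 had a log2 fold change of −4.18 ± 0.06, Cd34 of −4.10 ± 0.13 (93 reads with Prdm16, 1625 with puro), Col1a1 of −3.55 ± 0.13 and Pdgfrb of −1.50 ± 0.03. Thy1 had 7 reads over the Prdm16 group and 53 over the puro group. Ly6a was higher (1.39 ± 0.04), and Pdgfra did not pass, at 188 ± 6.64 CPM with Prdm16 and 199 ± 9.57 CPM with puro (SD, n = 3 each). The call of Dcn, lower, was lost with DESeq2 (adjusted p = 0.2), without the filter (0.0657) and without any 1 library other than puro replicate 3 (0.055 to 0.107). Of 10 markers of mammary luminal epithelium, the milk protein genes Csn2, Csn1s2a, Wap and Lalba had no read in any library. The 2 tested ones, Prlr and Areg, rose. Among the untested ones, Wfdc18 had 36 reads with Prdm16 and 4 with puro (ratio 9.18, counting interval 3.29 to 35.5). Cited4 had 14 and 13, Ltf 3 and 0, and Csn3 1 and 1. The list summed to 6.95 to 8.22 CPM with Prdm16 and 1.13 to 1.52 CPM with puro. The 5 basal and myoepithelial markers summed to 0.270 to 0.656 CPM with Prdm16 and 0.452 to 0.860 CPM with puro, and none had enough reads for the test. Krt15 had 21 reads with Prdm16 and 2 with puro, Oxtr 17 and 36, Krt17 3 and 23, Krt5 3 and 3, and Krt14 2 and 1. The 3 tested keratinocyte markers, Krt10, Sbsn and Lor, fell, but the call of Lor was lost with DESeq2 (adjusted p = 0.13), without Prdm16 replicate 2 (0.0733) and without puro replicate 2 (0.0826). Among 7 mesothelial markers Msln, at 91.2 ± 3.10 CPM with Prdm16 and 6.30 ± 0.266 CPM with puro, rose, but Wt1 fell and Upk1b had no read. Of the other untested ones, Upk3b had 28 reads with Prdm16 and 14 with puro, Gpm6a 10 and 1, Bnc1 12 and 22, and Lrrn4 1 and 3. Endothelial markers summed to 9.43 to 12.2 CPM with Prdm16 and 1.79 to 1.92 CPM with puro, with Cdh5 and Cldn5 at 0. Most of the Prdm16 sum was Tek, which averaged 10.2 CPM with Prdm16 and 1.19 CPM with puro. Kdr had 0.365 CPM with Prdm16 and 0.393 CPM with puro. Pecam1 had 10 reads with Prdm16 and 16 with puro, Esam 29 and 9, Tie1 4 and 1, and Emcn 1 and 1. Macrophage markers summed to 8.33 to 8.61 CPM with Prdm16 and 14.2 to 15.3 CPM with puro. The part of these cell types in the regulators' counts was not tested.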

How the data were processed

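Per the labels' protocols, polyadenylated RNA came from a Trizol and PureLink extraction, and libraries from an Illumina TruSeq kit. The submitters' processing notes name STAR, featureCounts, Subread and mm9, with no role, order or version. What the authors deposited is a table of raw counts, in whole numbers, for each gene symbol. The sources used here do not state the strand setting or how shared reads were treated.

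Groups and replicate numbers came from the labels. Counts were fitted with edgeR 4.0.16 in R 4.3.3: scaling was by TMM, filterByExpr kept 13805 genes (the other 10392 carried 0.0297% of all reads), and a two-sided quasi-likelihood test was adjusted by Benjamini-Hochberg, at 0.05. The SE came from the fold change and F statistic. The method was tested on simulated data. Exon lengths came from GENCODE M21 on GRCm38, another build, and were used for length only. Replicates of a group differed by a chi-square of 2.08 to 8.85 per gene, above sampling noise, and each was counted.

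The members and lists were chosen with earlier results of these data known. Named were, in each list, up to 6 tested genes with the smallest p and untested genes with at least 3 counts; Grhl3, Elf5, Krt18, Jup, Fxyd3 and the cell type markers were named after their values were seen. A few genes that this rule names are not reported here. As alternatives the fit was repeated with DESeq2 1.42.0, limma-voom (limma 3.58.1), a replicate block, RLE or upper-quartile scaling, without the filter, with a minimum of 1 CPM in 3 libraries, and without each library in turn.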

Additional observations from a re-analysis of the deposited data

How the results depend on the processing

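Without a filter on low counts, 4 of the other epithelial transcription factors were higher (2 with the usual filter) and 2 lower (1), and 4 adhesion and junction genes were lower (1); more genes are tested in that setting. Leaving out 1 library gave 1 to 2 lower adhesion and junction genes. All other counts of the 6 lists and of all genes stayed within 1.5 times the reported count in every setting. Higher genes numbered 4849 to 5683 and lower genes 4886 to 5466 across the settings that keep all libraries. None of 110 tested genes turned its direction in the settings that gave it a value, and 48 of their values lost the call, 32 of them with a library left out. Deviations from the group mean correlated between same-numbered libraries at r of −0.164, 0.099 and −0.067. Between differently numbered libraries r ran from −0.19 to 0.25. With only 3 libraries centred in each group, these values cannot decide whether the numbers share a source. With the replicate block 5017 genes were higher and 5072 lower. The lists then had 20 higher adhesion and junction genes and 18 higher splicing regulators. The block ended the calls of 1700020D05Rik (adjusted p = 0.0514), Pet117 (0.0596), Apip (0.0576) and Dcn (0.0703). Depth limits Grhl2, Ovol1, Ovol2 and Ehf, which rest on at most 15 reads over a group.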
